A study of Mus musculus with 12 samples.

Results

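Kupffer cells are the resident macrophages of the liver, and 10 genes that mark them or macrophages in general were followed here through the livers of wild-type and OXR1A-deficient mice of both sexes. The 10 genes were taken by symbol from the 18560 genes of a liver RNA-seq table: Clec4f, Timd4, Vsig4, Cd5l and Marco as markers of the resident Kupffer cell, and Emr1, Cd68, Csf1r, C1qa and Cd163 as markers of macrophages in general. Emr1, the older symbol of Adgre1 (F4/80), and Cd163 are carried by Kupffer cells too. They were placed with the general markers because macrophages of other tissues also carry them. That reason was not checked for each resident marker, so the split is a working choice. There were 12 libraries of liver RNA from mice aged 12 months, 3 in each of 4 groups: wild-type and OXR1A-/- (knockout) males, and females of both genotypes. Oxr1, whose products include the isoform OXR1A, is linked to resistance against oxidative stress. The labels name no strain, allele design or treatment, and leave unsaid if each of the 3 libraries is its own animal. The p-values therefore rest on a spread between libraries that may be technical. The study's title names a fatty liver in the knockout males, and the present question is how the macrophage markers stand in the same livers, and whether the resident markers differ from the general ones.

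Kupffer cells line the liver sinusoids, where they take up particles, bacteria, damaged red cells and lipoproteins from portal blood. Most are laid down before birth and renew themselves, and monocytes from blood can take their place when they are lost. Signals through the CSF1 receptor keep them alive. Their identity is known to depend on the myeloid factor PU.1, on Notch signals that reach the DNA through RBPJ, on TGF-beta family ligands and on the nuclear receptor LXR alpha.

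The promoters of the markers are shown first, as the DNA next to the starts of the genes whose levels are given further on. RefSeq windows (GRCm38.p6) were used for 7 of the 10 markers. Each was read over the 250 bases before the start of the gene, in the direction of the gene. No window was found for Emr1 and C1qa, and Csf1r was left out of the search. Each window was searched on both strands for the PU.1 core GAGGAA. The 4 windows that hold it follow, 5′ to 3′, with the matches in capitals.
Vsig4 (chrX:96293439-96293688, minus strand): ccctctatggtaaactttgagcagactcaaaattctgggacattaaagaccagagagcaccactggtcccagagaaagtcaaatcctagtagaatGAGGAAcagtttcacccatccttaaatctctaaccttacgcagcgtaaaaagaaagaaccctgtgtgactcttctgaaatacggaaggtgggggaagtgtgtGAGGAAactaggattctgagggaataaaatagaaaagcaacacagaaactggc
Cd5l (chr3:87357631-87357880, plus strand): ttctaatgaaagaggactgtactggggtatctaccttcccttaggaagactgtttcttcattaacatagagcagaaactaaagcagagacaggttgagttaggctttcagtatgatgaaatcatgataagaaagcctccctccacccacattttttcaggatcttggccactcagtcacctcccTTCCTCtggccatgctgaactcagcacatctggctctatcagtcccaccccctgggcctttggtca
Marco (chr1:120505025-120505274, minus strand): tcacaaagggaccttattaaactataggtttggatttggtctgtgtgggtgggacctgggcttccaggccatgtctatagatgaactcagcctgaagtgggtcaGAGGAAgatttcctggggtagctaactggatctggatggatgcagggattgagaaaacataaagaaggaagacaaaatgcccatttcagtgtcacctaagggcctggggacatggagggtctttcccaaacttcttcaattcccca
Cd68 (chr11:69666171-69666420, minus strand): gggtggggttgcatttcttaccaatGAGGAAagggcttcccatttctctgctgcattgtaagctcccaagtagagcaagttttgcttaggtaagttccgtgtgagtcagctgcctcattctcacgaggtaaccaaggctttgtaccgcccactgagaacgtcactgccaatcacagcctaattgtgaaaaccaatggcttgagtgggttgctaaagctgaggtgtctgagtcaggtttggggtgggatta
The Cd5l match lies on the opposite strand and reads TTCCTC. Matches began at positions -155 and -53 from the start in Vsig4, -66 in Cd5l, -146 in Marco and -225 in Cd68. Of 32851 mouse windows of the same length, 23.3% hold GAGGAA on either strand. The RBPJ letters TGGGAA, which share the run GGAA with the PU.1 core, were found in 3 of the 7 windows (Clec4f, Marco and Cd68) against 21.6% of all windows, and no match overlapped a PU.1 match. The interferon regulatory factor letters (GAAA, any 2 bases, GAAA; 2.98% of all windows), the LXR repeat (AGGTCA, any 4 bases, AGGTCA; 0.0152%) and the TATA letters TATAAA (12.4%) were found in 0 of the 7. These matches describe letters and not binding.

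Values are in FPKM (fragments per kilobase of transcript, scaled by library depth), so levels can be set beside each other between genes. FPKM sums ran from 526203 to 667434 per library, and the depth estimated from the steps of low values was 20300000 to 32400000 fragments. All 10 markers had at least 1 FPKM in all 12 libraries and passed the filter on low values. Oxr1 itself was listed at 12.1 to 25.0 FPKM over the 12 libraries, which covers all isoforms and does not check the loss of OXR1A. Several libraries stood apart. Wild-type male 2 was the poorest in long transcripts, with a slope of log2 deviation on log2 length of -0.28 against -0.12 to 0.16 in the others. Knockout male 3 had 0.82 FPKM of Xist, and wild-type female 1 and knockout female 1 had 1.89 and 0.85 FPKM of the Y-linked Eif2s3y, against at most 0.08 and 0.10 in the other libraries of their sex. Of the markers, 7 of 10 were highest in knockout male 2 and 9 of 10 were lowest in wild-type male 1.

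Values are given in FPKM in the order of libraries 1, 2 and 3 of each group, resident Kupffer markers first. Clec4f (Entrez gene 51811, GRCm38 chromosome 6, 83644542 to 83656116) encodes a C-type lectin that in mice is made by Kupffer cells. Clec4f was listed at 19.6, 30.6 and 23.1 FPKM in wild-type and 38.6, 53.3 and 37.7 in knockout males, 50.5, 43.4 and 61.2 in wild-type and 47.5, 50.8 and 60.9 in knockout females. All 3 wild-type males lay below all other libraries. Timd4 (Entrez gene 276891, GRCm38 chromosome 11, 46810786 to 46844333) encodes a receptor for phosphatidylserine on dying cells. Timd4 was listed at 1.94, 2.07 and 3.14 FPKM in wild-type and 4.57, 12.3 and 8.0 in knockout males, 6.50, 5.24 and 9.68 in wild-type and 5.97, 6.89 and 8.28 in knockout females. The wild-type males were again below all others, and knockout male 2 was the highest of the 12. Vsig4 (Entrez gene 278180, GRCm38 chromosome X, 96247201 to 96293438) encodes a complement receptor that captures opsonised particles. Vsig4 was listed at 13.7, 21.5 and 20.7 FPKM in wild-type and 32.7, 42.0 and 38.6 in knockout males, 44.8, 44.7 and 65.2 in wild-type and 56.4, 68.9 and 67.7 in knockout females. The knockout males lay between the wild-type males and the females and overlapped neither. Cd5l (Entrez gene 11801, GRCm38 chromosome 3, 87357881 to 87371074) encodes a secreted scavenger-type protein that macrophages make and that circulates with IgM. Cd5l was listed at 18.8, 27.5 and 26.2 FPKM in wild-type and 45.2, 106 and 61.6 in knockout males, 73.2, 58.1 and 80.7 in wild-type and 70.9, 64.6 and 76.4 in knockout females. Knockout males ranged from below the lowest female to above the highest female. Marco (Entrez gene 17167, GRCm38 chromosome 1, 120474538 to 120505024) encodes a scavenger receptor for bacteria and particles. Marco was listed at 3.93, 9.91 and 9.82 FPKM in wild-type and 7.49, 73.0 and 50.5 in knockout males, 18.5, 7.70 and 48.2 in wild-type and 9.86, 27.5 and 25.7 in knockout females. Marco varied most: its highest library was 18.6-fold above its lowest, against 3.12-fold for Clec4f, and knockout male 1 lay within the range of the wild-type males.

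Among the general markers, Csf1r (Entrez gene 12978) encodes the receptor for CSF1 and IL34. Csf1r was listed at 6.77, 10.1 and 9.17 FPKM in wild-type and 16.6, 32.1 and 14.5 in knockout males, 19.1, 17.8 and 22.9 in wild-type and 20.2, 17.9 and 25.2 in knockout females. The wild-type males were below all other libraries, and knockout male 2 stood above all others. Emr1 (Entrez gene 13733, GRCm38 chromosome 17, 57358581 to 57483529) encodes F4/80, the adhesion receptor by which mouse macrophages are commonly stained. Emr1 was listed at 2.40, 3.37 and 3.87 FPKM in wild-type and 7.67, 19.3 and 8.50 in knockout males, 8.10, 6.86 and 11.9 in wild-type and 8.61, 8.57 and 10.8 in knockout females. The pattern of Emr1 was that of Csf1r, with knockout male 2 as the highest library. Cd68 (Entrez gene 12514, GRCm38 chromosome 11, 69664213 to 69666170) encodes a glycoprotein of the lysosome. Cd68 was listed at 4.86, 11.03 and 8.40 FPKM in wild-type and 16.8, 29.4 and 16.5 in knockout males, 21.3, 17.8 and 26.5 in wild-type and 21.7, 21.6 and 25.1 in knockout females. No wild-type male reached the lowest value of another group. C1qa (Entrez gene 12259, GRCm38 chromosome 4, 136895916 to 136898844) encodes a chain of C1q, the first component of the classical complement pathway. C1qa was listed at 26.2, 65.8 and 41.0 FPKM in wild-type and 51.3, 123 and 68.7 in knockout males, 72.5, 57.3 and 88.0 in wild-type and 74.0, 77.6 and 99.8 in knockout females. Wild-type male 2 lay within the range of the knockout males and of the wild-type females. Cd163 (Entrez gene 93671, GRCm38 chromosome 6, 124304636 to 124330529) encodes the receptor for complexes of haemoglobin and haptoglobin. Cd163 was listed at 2.08, 1.46 and 2.46 FPKM in wild-type and 5.76, 4.98 and 2.60 in knockout males, 4.15, 3.24 and 4.10 in wild-type and 4.70, 4.04 and 3.64 in knockout females. Knockout male 1 held the highest Cd163 value, and knockout male 3 was just above the highest wild-type male.

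**Figure D1:**
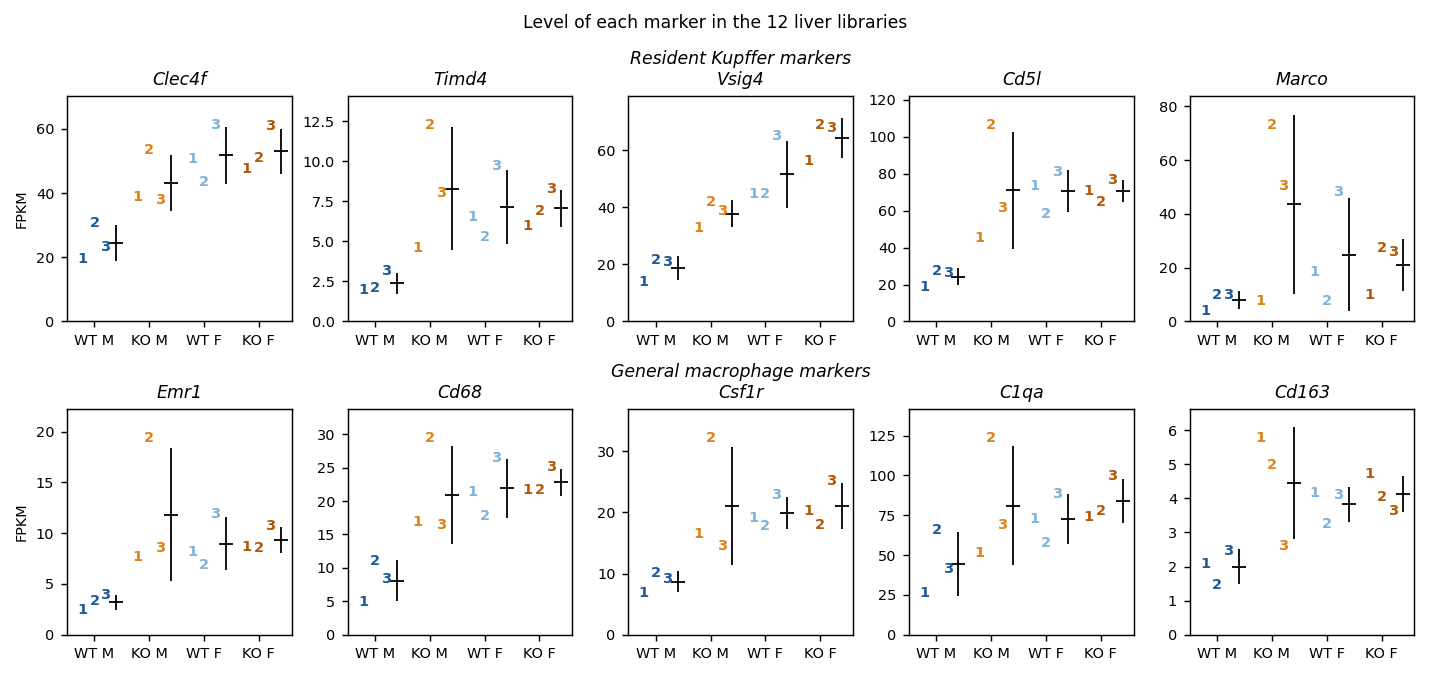
FPKM of the 10 markers (one panel each, axis from 0) in the wild-type (WT) and knockout (KO) males (M) and females (F); digits are the library numbers, and bars beside them show the group mean ± SD (n = 3). In 8 of the 10 panels the 3 wild-type males lie below all 3 knockout males; Marco and C1qa overlap.

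By level per length, C1qa had the highest mean and Cd163 the lowest in all 4 groups. In wild-type males C1qa stood at 44.3 ± 20.0 FPKM (SD, n = 3), followed by Clec4f at 24.4 ± 5.62, Cd5l at 24.2 ± 4.67 and Vsig4 at 18.6 ± 4.26. Neighbours in that order overlapped in range down to Vsig4, which lay above Csf1r, Cd68 and Marco without overlap. Emr1 (3.21 ± 0.747), Timd4 (2.38 ± 0.659) and Cd163 (2.0 ± 0.505) were lowest and overlapped. Emr1 and Timd4 were the eighth and the ninth in the other groups as well. In knockout males Cd5l came next after C1qa, and Marco moved from the seventh to the third place with a mean of 43.7 ± 33.3, but its range overlapped those of both neighbours, and Vsig4 was above Csf1r without overlap. In wild-type females C1qa, Cd5l, Clec4f, Vsig4, Marco, Cd68 and Csf1r followed each other with overlap, and the whole range of Csf1r was above that of Emr1. In knockout females C1qa, Cd5l, Vsig4 and Clec4f overlapped in turn and lay above Cd68, Csf1r and Marco, which overlapped too.

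In male livers most of the macrophage markers were higher in the knockout. Of the 10 markers 6 rose in the limma test at an adjusted p under 0.05 and none fell, against 2.13% of all 11514 tested genes that rose (2.55% called in either direction). Of the resident markers 3 of 5 rose. Cd5l, the secreted scavenger-type protein, rose 2.94-fold from 24.2 ± 4.67 to 71.1 ± 31.7 FPKM (log2 difference 1.45, SE 0.26, adjusted p = 0.0213). Vsig4, the complement receptor, rose 2.02-fold (log2 difference 1.0, SE 0.19, adjusted p = 0.0276). Timd4, the phosphatidylserine receptor, rose 3.47-fold (log2 difference 1.38, SE 0.29, adjusted p = 0.0344). Clec4f was 1.77-fold higher and just missed the threshold (log2 difference 0.80, SE 0.19, adjusted p = 0.0514). Marco was 5.54-fold higher in the mean with overlapping groups (log2 difference 1.93, SE 0.79, adjusted p = 0.169).

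Of the general markers 3 of 5 rose as well. F4/80 (Emr1) rose 3.68-fold from 3.21 ± 0.747 to 11.8 ± 6.51 FPKM (log2 difference 1.51, SE 0.29, adjusted p = 0.0277). Cd68, the lysosomal glycoprotein, rose 2.58-fold (log2 difference 1.28, SE 0.27, adjusted p = 0.0355). Csf1r, the receptor for CSF1, rose 2.42-fold (log2 difference 1.12, SE 0.26, adjusted p = 0.0463). Cd163 was 2.22-fold higher (log2 difference 0.82, SE 0.22, adjusted p = 0.0636) and C1qa 1.83-fold (log2 difference 0.86, SE 0.34, adjusted p = 0.164), and neither passed. In 8 of the 10 markers all 3 knockout males were above all 3 wild-type males, as in 21.2% of all tested genes. The median log2 difference was 1.20 over the 10 markers and 0.19 over all tested genes. With median-ratio scaling of the libraries these medians were 1.0 and 0.02. In bulk RNA, a change in the number of macrophages and a change in RNA per macrophage cannot be told apart.

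The 10 differences in males were positive in every alternative fit that was run, but the number past the threshold depended on single libraries. It was 0 without wild-type male 1 or wild-type male 3, 2 without knockout male 2, 4 without wild-type male 2 or knockout male 1, and 8 without knockout male 3. It was 3, 4 and 5 without wild-type female 1, 2 and 3, and 3 without any 1 knockout female. With the male groups fitted alone it was 0, where 3 of all genes were called. With median-ratio scaling, quantile normalization or no filter on low values it was 2, 1 and 2. A pseudocount of 0.1, the replicate number as a block or removal of the length trend gave 7, 5 and 5. Cd5l kept its call in 10 of the 12 fits that left out 1 library, Vsig4 and Emr1 in 9, Timd4 in 4, Cd68 in 3 and Csf1r in 1. Without both male libraries numbered 2 (an alternative added after seeing the data), Cd5l and Cd68 were called, and the median over the 10 markers was 1.02. Without the 3 libraries that hold Xist or Eif2s3y against their label, also added after seeing the data, Cd163 alone was called, and the median was 1.35.

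In females no marker passed the test. The limma test called 0 of the 10 markers (0 of 10 also at an unadjusted p under 0.05), where 2 of all tested genes were called (0.0174%) and 706 had an unadjusted p under 0.05. Log2 differences ran from -0.003 for Marco to 0.33 for Vsig4, with SE of 0.19 to 0.79, and the median was 0.07 over the markers and 0.003 over all genes. That median was -0.07 without wild-type female 2, -0.03 without knockout female 3 and 0.22 without wild-type female 3. Vsig4 was listed at 64.3 ± 6.90 FPKM in knockout females and 51.6 ± 11.8 in wild-type females (adjusted p = 0.851). The groups overlapped in all 10 markers, while 9.22% of all tested genes were higher and 8.42% lower without overlap.

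The difference between the effects in males and in females was tested as an interaction. All 10 estimates were positive, from 0.64 for C1qa to 1.93 for Marco, and their median was 1.13 against 0.20 over all genes. None was called: the smallest adjusted p was 0.389, for Cd5l (log2 difference 1.44, SE 0.37), and 3 of all tested genes were called (0.0261%). At an unadjusted p under 0.05 there were 8 of the 10 markers and 1040 of all genes. A sex difference in the knockout effect was thus not established for any single marker by this test.

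**Figure D2:**
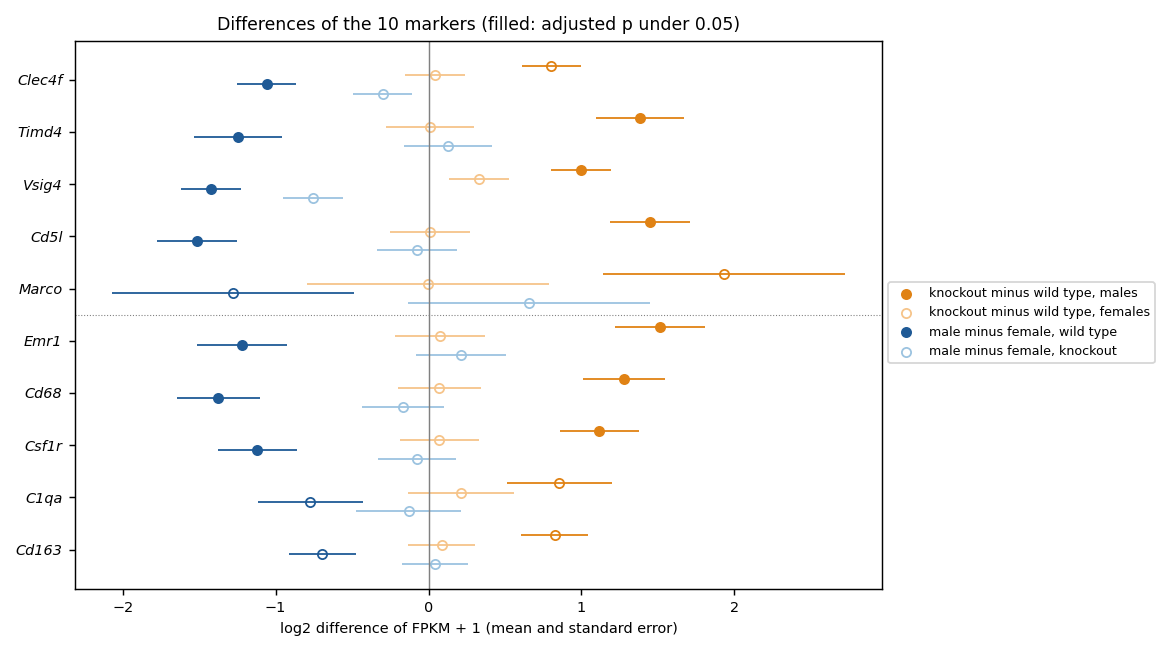
Log2 difference of FPKM + 1 for each marker (resident above the dotted line, general below it) in 4 comparisons, with the standard error as the bar; filled points passed an adjusted p of 0.05. The points for knockout minus wild type in males lie to the right (6 filled), those for male minus female in wild type to the left (7 filled), and the 2 other comparisons have 0 filled points.

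Most of the macrophage markers were lower in wild-type males than in wild-type females. Of the 10 markers 7 were lower in males by limma and none was higher, against 11.1% of all tested genes that were lower (13.4% called in either direction). Of the resident markers 4 of 5 were lower. Vsig4 was 2.77-fold higher in females than in males (log2 difference -1.42, SE 0.19, adjusted p = 0.000852), Cd5l 2.92-fold (log2 difference -1.52, SE 0.26, adjusted p = 0.00384), Timd4 3.0-fold (log2 difference -1.25, SE 0.29, adjusted p = 0.0177) and Clec4f 2.12-fold (log2 difference -1.06, SE 0.19, adjusted p = 0.00539). Of the general markers 3 of 5 were lower in males. Cd68 was 2.70-fold higher in females (log2 difference -1.37, SE 0.27, adjusted p = 0.00805), Emr1 2.78-fold (log2 difference -1.22, SE 0.29, adjusted p = 0.0209) and Csf1r 2.29-fold (log2 difference -1.12, SE 0.26, adjusted p = 0.0164). Cd163 (log2 difference -0.70, SE 0.22, adjusted p = 0.0559), C1qa (log2 difference -0.77, SE 0.34, adjusted p = 0.144) and Marco (log2 difference -1.28, SE 0.79, adjusted p = 0.278) did not pass. In 8 of the 10 markers all wild-type males were below all wild-type females, as in 34.1% of all tested genes, and the median log2 difference was -1.24 over the markers and -0.21 over all genes (-1.06 and -0.04 with median-ratio scaling). This comparison and that of the males share the wild-type males, so the low values of these 3 libraries enter both. The count was 4 without wild-type female 1 or wild-type female 3, and 3 without those 3 libraries that hold Xist or Eif2s3y against their label; Clec4f, Vsig4, Cd5l and Cd68 were called in all 12 fits that left out 1 library.

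Between knockout males and knockout females no marker passed (0 of 10), where 423 of all tested genes did (3.67%) and 1782 had an unadjusted p under 0.05. Vsig4, the only 1 of the 10 with an unadjusted p under 0.05, was 1.70-fold higher in females (log2 difference -0.76, SE 0.19, adjusted p = 0.0566), and its male and female values did not overlap (12% of all tested genes were lower in males without overlap). It was called in 8 of 21 alternative fits, with adjusted p from 0.024 to 0.238. The median over the 10 markers was -0.08, and it was -0.41 without knockout male 2, 0.10 without knockout male 1 and 0.04 without knockout male 3. Set against the wild-type female mean, the knockout male mean was 73.2% for Vsig4, 83.6% for Clec4f, 95.5% for Cd68, 101% for Cd5l, 106% for Csf1r, 112% for C1qa, 116% for Timd4 and Cd163, 132% for Emr1 and 176% for Marco. Without knockout male 2 the mean of knockout males 1 and 3 was under the wild-type female mean in 8 of the 10 markers, from 69.1% for Vsig4 to 90.4% for Emr1, and above it for Cd163 at 109% and Marco at 117%. The wild-type male mean was 31.8% (Marco) to 61.1% (C1qa) of it.

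Resident and general markers were compared within each library, as the mean log2(FPKM + 1) of the 5 resident markers minus that of the 5 general ones. It was 0.55, 0.56 and 0.65 in the wild-type males, 0.32, 0.80 and 1.22 in the knockout males, 0.81, 0.65 and 1.10 in the wild-type females and 0.59, 1.01 and 0.89 in the knockout females. The knockout males had the lowest and the highest value of the 12 libraries, knockout males 1 and 3. Group means were 0.59 ± 0.05, 0.78 ± 0.45, 0.85 ± 0.23 and 0.83 ± 0.22 (SD, n = 3) in the same order. Knockout males were 0.20 above wild-type males, less than the pooled SD of 0.32, and the difference was -0.02 without knockout male 3 and 0.43 without knockout male 1. It was 0.33 with Emr1 counted as a resident marker and 0.04 with Cd163 counted so. No resident marker was counted as a general one. Wild-type males minus wild-type females came to -0.27, beyond the pooled SD of 0.17, and to -0.08 when Cd163 was counted as a resident marker. That difference was -0.14 without wild-type female 3, inside the pooled SD, and -0.37 without wild-type female 2. No p is given for these scores, since the markers were chosen with earlier results known.

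Marco carried much of the spread between libraries in this score. Without Marco it was 0.79, 0.67 and 0.75 in the wild-type males, 0.62, 0.64 and 1.07 in the knockout males, 0.97, 1.0 and 1.07 in the wild-type females and 0.92, 1.08 and 1.02 in the knockout females. Then the 3 wild-type males and knockout males 1 and 2 lay below all 6 females, and knockout male 3 lay among them. By the median log2 difference between knockout and wild-type males, the resident markers stood at 1.38 and the general markers at 1.12, and between wild-type males and females at -1.28 and -1.12.

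**Figure D3:**
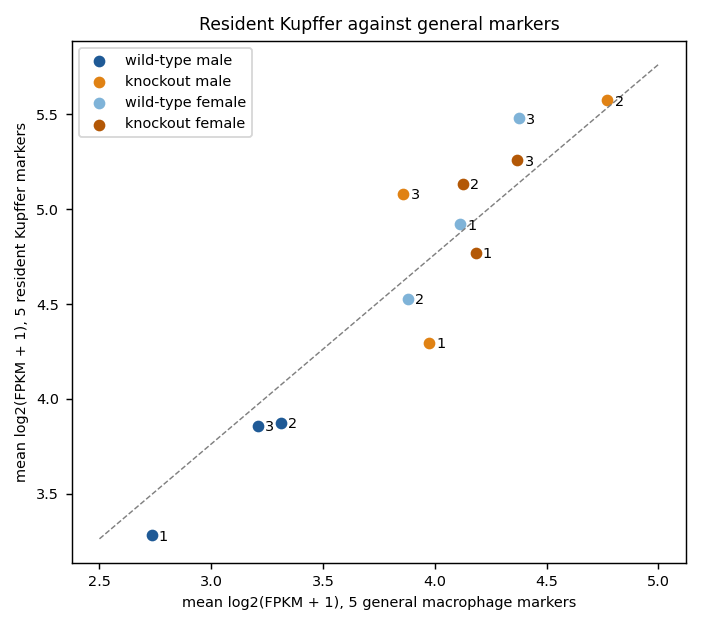
Mean log2(FPKM + 1) of the 5 resident Kupffer markers (vertical) against that of the 5 general macrophage markers (horizontal) in each of the 12 libraries, with library numbers beside the points; the dashed line is the mean difference of 0.76. Wild-type males lie at the lower left, knockout male 2 at the upper right, and knockout males 1 and 3 lie farthest below and above the line.

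Other macrophage genes were taken from lists, for knockout against wild type in males. In that comparison 2.13% of all tested genes rose, and the median log2 difference over all of them was 0.19. Of 19 tested genes of resident macrophages other than the markers, 6 rose and none fell, with a median log2 difference of 0.84. Msr1, a scavenger receptor, rose 3.88-fold (adjusted p = 0.0206), the syndecan Sdc3 2.63-fold (0.0213) and the hyaluronan receptor Lyve1, which sinusoidal endothelium also makes, 4.01-fold (0.0284). Of 24 pan-macrophage and phagocyte genes none passed, although all 24 differences were positive, with a median of 0.99. The receptor kinase Axl was 2.46-fold higher (adjusted p = 0.0508), and Cybb, the catalytic subunit of the phagocyte oxidase, 3.92-fold (0.0519). The summed FPKM of that list was 263 and 298 in knockout males 1 and 3, 806 in knockout male 2, and 140 to 226 in the wild-type males.

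Genes of monocytes and recruited macrophages gave 0 of 10 calls with a median of 0.59. Their summed FPKM was 22.4, 71.4 and 19.7 in knockout males 1, 2 and 3 and 13.3 to 16.2 in the wild-type males. Ccr2, the receptor that draws monocytes out of the marrow, was listed at 0.43 ± 0.04 FPKM in wild-type and 2.01 ± 2.02 in knockout males (adjusted p = 0.18). In single libraries Ccr2 stood at 1.44, 4.25 and 0.33 FPKM in knockout males 1, 2 and 3. Lipid-associated macrophage genes gave 0 of 13 calls, with a median of 0.31, and 10 differences were positive and 3 negative (Fabp5, Ctsl and Apoe). The list is not particular to macrophages: Spp1 is on the cholangiocyte list too, and Apoe stood at 15413 FPKM in wild-type males. How much of the RNA of these genes came from macrophages was not tested. Gpnmb, Itgax and Mmp12 of the list did not pass the filter on low values. The genes named here were picked with their values in view. At an unadjusted p under 0.05 there were 5 of the 13, and 2752 of all 11514 tested genes. Fabp5, picked with its values in view, was among the 5 and was lower in knockout males (log2 difference -0.83, adjusted p = 0.168). The smallest p there were those of Atp6v0d2, a subunit of the proton pump, at 2.47-fold (adjusted p = 0.0878), the glucan receptor Clec7a at 3.35-fold (0.109) and the galectin Lgals3 at 2.73-fold (0.157). Clec7a and Lgals3 were highest in knockout male 2, at 12.6 and 14.2 FPKM against 2.65 to 5.38 and 3.55 to 3.79 in knockout males 1 and 3. Trem2, the lipid receptor commonly used to name this macrophage state, was picked for that role with its values in view and was listed at 0.73 ± 0.68 and 1.07 ± 0.42 FPKM (adjusted p = 0.493). Of 11 chemokine and macrophage cytokine genes none passed, with a median of 0.73. Ccl2, which attracts monocytes, was listed at 0.58 ± 0.16 and 5.58 ± 5.60 FPKM (adjusted p = 0.0595), with 2.95, 12.01 and 1.77 FPKM in knockout males 1, 2 and 3.

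In the list of CSF1 receptor ligands and survival signals, 1 of 9 rose, with a median of 0.45, against 2.13% and 0.19 for all tested genes. The list also holds receptor genes. Among them is Csf3r, which is on the neutrophil list too and whose difference of 0.45 is the median. Tgfb1, a TGF-beta ligand, rose 2.11-fold from 2.76 ± 0.09 to 5.81 ± 2.11 FPKM (adjusted p = 0.0425). Csf1, the main ligand of Csf1r, stood at 2.31 ± 0.46 and 3.70 ± 1.12 FPKM in wild-type and knockout males (adjusted p = 0.151). It was lower in wild-type males than in wild-type females, at 5.07 ± 0.24 (log2 difference -0.88, adjusted p = 0.0118). Il34, the second ligand, stood at 0.60 ± 0.13 and 0.90 ± 0.36 FPKM in the 2 male groups (adjusted p = 0.466). Csf1 and Il34 were picked from the list for their role, with their values in view.

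Among the markers of other cells of the liver, some genes of endothelium and stellate cells rose in males and those of the other lists gave no call. Of the sinusoidal endothelium 6 of 15 rose (median 0.59), with the smallest p for the receptor Gpr182, 1.94-fold (adjusted p = 0.00722), and Lyve1, counted above among the resident macrophage genes, is 1 of the 6. In the same comparison 2 of 14 of stellate cells and matrix rose (median 0.47), Dcn and Colec11, and 2.13% of all tested genes (median 0.19). In wild-type males against females 13 of 15 endothelial and 7 of 14 stellate and matrix genes were lower, with medians of -0.88 and -0.61. Of all tested genes 11.1% were lower there, with a median of -0.21. Summed FPKM of the endothelial genes was 126 to 149 in wild-type and 196 to 220.3 in knockout males and 240.5 to 278 in wild-type females. Hepatocyte genes gave no call in males (0 of 10, median -0.37), and their sum was 63727 to 73106 in wild-type males and 51828 to 55921 in knockout males. With median-ratio scaling the medians in males were 0.38 for endothelium, 0.31 for stellate cells and -0.59 for hepatocytes, and with the length trend removed 0.36, 0.27 and -0.53. The part of these shifts in the differences of the macrophage markers was not tested.

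Further lists of other cells gave no call between knockout and wild-type males. They were neutrophils (0 of 4 called, median 0.52), T, NK and B cells (0 of 9, -0.03) and dendritic cells (0 of 3, 0.41). Cholangiocytes (0 of 5, 0.04) and red cells (0 of 4, -0.30) were the others. Over all tested genes 2.55% were called there and the median was 0.19, so 0 calls in such short lists say little. A value of 0 in at least 1 library was found for 6 of the 10 neutrophil genes in the table, 3 of 15 of T, NK and B cells, 1 of 9 of dendritic cells and 3 of 15 of monocytes. With median-ratio scaling and with the length trend removed the cholangiocyte median changed sign, to -0.07 and -0.14, and the lipid-associated list had medians of 0.16 and 0.14. The other lists kept the sign of their median in males under both, each lower than on the main scale. None of the 10 markers was listed at 0 in any library.

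**Figure D4:**
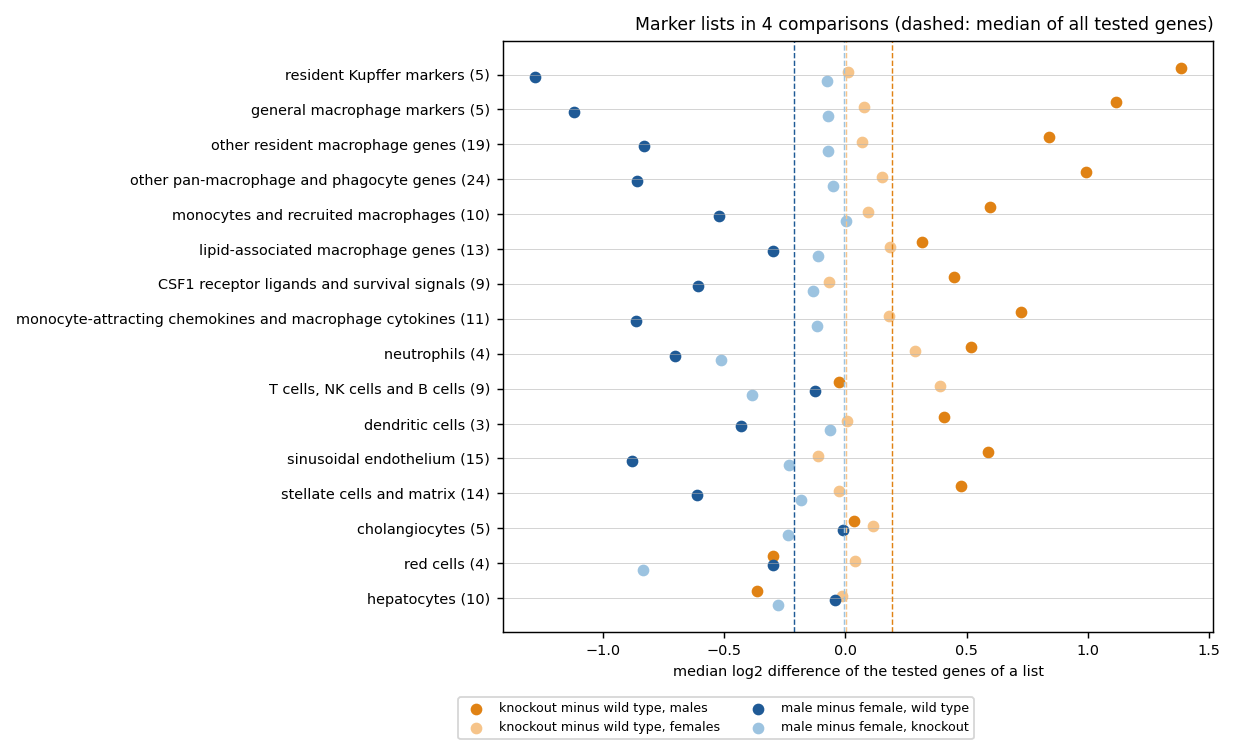
Median log2 difference of the tested genes of each list (number tested in parentheses) in 4 comparisons, with dashed lines at the median of all tested genes. For knockout minus wild type in males the medians run from 1.38 (resident Kupffer markers) to -0.37 (hepatocytes) against 0.19 for all genes.

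The genes whose pattern over the 12 libraries was most like the mean of the 10 standardised markers were Lgmn, a lysosomal protease (Pearson's r = 0.986), C1qc, a chain of C1q (0.980), Treml4 (0.974), Lrrc25 (0.974), Cd300ld (0.971) and Lrrc33 (0.970). These correlations are over 12 libraries that share groups, so the group means enter them. Within groups, r was taken against the mean log2(FPKM + 1) of the markers, not standardised, after subtracting each group mean. It was 0.916 for Lgmn and ran from 0.831 for Cd300ld to 0.975 for C1qc. For the resident markers alone Treml4 (0.968) and C1qc (0.965) came first, and the list also held Serpinb6a, Cfp and Plbd1. Treml4 was placed above among the genes of monocytes and recruited macrophages. It had the smallest p of that list between knockout and wild-type males in the limma test (2.53-fold, adjusted p = 0.0818). For the general markers alone Lgmn (0.985) came first, and the list also held Sparc, Axl, Cd300ld and Itgb2. Lgmn was listed at 23.5 FPKM in wild-type males and 43.5 to 47.5 in the other groups by group mean, and C1qc at 36.9 and 77.4 to 90.7.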

How the data were processed

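Per the labels' protocols, liver RNA was taken up with an RNeasy kit, and poly(A) RNA was isolated on oligo(dT) beads and primed at random. The deposited values are FPKM per gene, per the file headers, given to 2 decimals; TopHat2 and mm10 are named in the submitters' processing notes, and for the quantifier, annotation and filters the entry is: not given in the sources used here. All value columns matched a labelled sample. Depth is not stated and was estimated from the steps that whole fragments leave in FPKM times transcript length. No library repeats another (the closest pair shared 0.295% of its values at 5 FPKM or more), and all 12 were kept.

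The test covered the 11514 genes that reached 1 FPKM in 3 or more libraries. Their log2(FPKM + 1) values entered limma 3.58.1 (R 4.3.3) with a mean for each group, all 12 libraries in 1 fit, contrasts and trended moderation of the variances, two-sided, Benjamini-Hochberg adjusted over all tested genes, and called at an adjusted p under 0.05. The fit was tested on simulated data. Log2 differences understate the change of low genes, and folds are ratios of mean FPKM, given ± SD over 3 libraries. The members, the lists (14 macrophage, signal and other cell type lists beside the markers) and the tests were chosen with earlier results of these data known. Named genes are the 10 markers, up to 3 genes of smallest p per list in knockout against wild-type males, and the 6 most alike genes (1 of them is not reported here); others are said to be picked with values in view. Alternatives were a pseudocount of 0.1, no filter, median-ratio and quantile scaling, a fit of only the groups compared, the replicate number as a block, removal of the length trend (lengths for 98.4% of genes) and leaving out each library. Gene positions and promoter windows are those of RefSeq, GRCm38, both matched by gene number. Positions were matched for 10 of 10 markers and windows used for 7 of 10, with Csf1r left out of the window search.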

Additional observations from a re-analysis of the deposited data

How the results depend on the processing

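In males all 10 markers stayed higher in knockout livers in every fit run, and the 10 interaction estimates stayed positive; in wild type all 10 stayed lower in males than in females. No marker was called in knockout against wild-type females or in the interaction under any alternative. Of the member values in the males, 67 lost the call under an alternative and 5 gained one; in wild-type males against females 15 lost and 6 gained. Timd4, Emr1 and Cd163 lie at a few FPKM in wild-type males. Fragments follow FPKM times transcript length, and Emr1 and Cd163 are long (3238 and 4443 bases, against 1230 for Cd68). Which marker depth limits most was not worked out. No counting interval was made because fragment numbers are estimates. The cause of the changes below was not tested. Dropping groups or libraries leaves fewer residual degrees of freedom, and the calls then went both ways. With only the groups compared, the markers called came to 0 in males and to 8 in wild-type males against females.

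Markers called in males (6) came to 2 with no filter, 2 with median-ratio scaling, 1 with quantile normalization, 0 with only the groups compared, 2 without both male libraries numbered 2 and 1 without the 3 libraries that hold some RNA of the opposite sex. Leaving out 1 library gave 0 to 8. All genes called in males (294, 245 up and 49 down) came to 174, 152 (72 up, 80 down), 140 (61 up, 79 down), 3, 97 and 125 in that order, and to 58 to 570 without 1 library; with the length trend removed the split was 109 up and 149 down. In wild-type males against females the markers called (7) came to 3 without the 3 libraries with traces and to 4 to 8 without 1 library, and all genes (1539, 266 up and 1273 down) to 525 and to 675 to 2081; the split was 479 and 577 with median-ratio scaling, 586 and 499 with quantile normalization and 782 and 620 with the length trend removed. In knockout males against females Vsig4 was called alone (1 in place of 0) with quantile normalization, only the groups compared, the length trend removed and without both male libraries numbered 2; leaving out 1 library gave 0 to 1. All genes there (423) came to 216 with only the groups compared, 663 with the length trend removed, 665 without both male libraries numbered 2, 123 without the libraries with traces and 201 to 637 without 1 library. All genes called in females (2) came to 1 with a pseudocount of 0.1, 4 with no filter, 6 with only the groups compared, 1 with the length trend removed, 0 without the libraries with traces and 0 to 12 without 1 library, and in the interaction (3) to 5 with a pseudocount of 0.1, 10 with the length trend removed and 1 to 22 without 1 library.

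Whether the replicate numbers pair the samples cannot be told from 3 libraries a group. Same-numbered libraries of different groups correlated from -0.32 to 0.56 in their deviations from the group means (6 of 18 over 0.1). Libraries of other numbers correlated from -0.62 to 0.42 (14 of 36 over 0.1), and 6 of 12 libraries correlated best with their own number. With the replicate block 132 genes were called in males, 5 in the interaction and 1 marker (Vsig4) in knockout males against females.

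Small log2 differences that changed sign were those of Marco in females (0.0079 with a pseudocount of 0.1, 0.42 without the libraries with traces), Cd5l in females (-0.0014 with median-ratio scaling, -0.010 with quantile normalization, -0.013 with the length trend removed) and Timd4 in females (-0.0062 with the length trend removed). In knockout males against females, Timd4 came to -0.17, Emr1 to -0.18 and Cd163 to -0.050 without both male libraries numbered 2, and Marco to -0.14 and Csf1r to 0.12 without the libraries with traces. Leaving out 1 library gave, in females, -0.16 to 0.22 for Timd4, -0.074 to 0.17 for Clec4f, -0.12 to 0.11 for Cd5l, -0.61 to 0.64 for Marco, -0.077 to 0.28 for Emr1, -0.061 to 0.21 for Cd68, -0.058 to 0.18 for Csf1r and -0.0047 to 0.16 for Cd163. In knockout males against females it gave -0.41 to 0.20 for Cd5l, -0.41 to 0.14 for Csf1r, -0.48 to 0.15 for C1qa, -0.14 to 0.32 for Cd163, -0.17 to 0.45 for Timd4 and -0.18 to 0.44 for Emr1. Resident minus general markers in wild-type males against females came to -0.081 with Cd163 among the resident markers.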
